A study of Mus musculus with 38 samples.

Results

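The genes described here encode the respiratory chain and ATP synthase of the mitochondrial inner membrane. Members were chosen by gene name alone, as the non-control probes named Nduf (followed by a, b, c, s or v), Sdha to Sdhd, Uqcr, Cox4 to Cox8 or Atp5, leaving out Cox7a1 and Cox8b, which are known as brown fat and muscle genes. The rule took 118 of 40628 probes, for 88 of 29411 names. By name, 38 genes belonged to complex I, 4 to the assembly factors of complex I (Ndufaf), 4 to complex II, 7 to complex III, 17 to complex IV and 18 to complex V. The names are those of the array design and a few are old or loose: Uqcr is now Uqcr11, Atp5f1 is Atp5pb, Cox4nb is Emc8, which is not an oxidase subunit, and Atp5s and Atp5sl are Dmac2l and Dmac2. No mitochondrially encoded subunit was found under the names searched.

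Complexes I to IV pass electrons from NADH and succinate through ubiquinone and cytochrome c to oxygen and pump protons at complexes I, III and IV, and complex V uses the proton gradient to make ATP. Complex II is also the succinate dehydrogenase of the citrate cycle. Brown adipocytes are known for their dense mitochondria, which burn fat for heat through the uncoupling protein Ucp1, while white adipocytes and macrophages hold fewer.

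RNA came from epididymal stromal vascular cells, labelled as infiltrating macrophages, of C57BL/6J mice weaned at 3 to 4 weeks of age, and each sample was read on 1 one-colour array. LFC mice ate a normal diet with 10% of calories from fat. HFC mice ate a high fat, high sucrose diet with 60% of calories from fat, and HF5, HF20 and HF75 mice ate that diet with 5, 20 or 75 µg of the botanical formulation KAL-1. There were 10 LFC and 10 HFC arrays (days D6, D10 and D14 and weeks W0 to W18, every 3 weeks) and 6 arrays of each dose (W3 to W18). Each diet had 30 animals, of which 5 were sacrificed per time, and it is not stated in the sources used here whether an array holds 1 animal or a pool. The series text speaks of 3 biological replicates, but only 1 array per diet and time was analysed here, so the time points served as the replicates and p-values measure the spread between time points. D14 and W0 fall on the same elapsed day when weeks are counted from day 14, and they were kept as separate time points. At W15 and W18 the diet label of HF5 and HF20 named the other dose, and the groups were taken from the titles and source names.

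A level is log2 of the scanner's processed signal minus log2 of the array's 75th percentile, with the brightest probe (highest mean level) standing for a gene. A level of 1 thus means 2 times the 75th percentile. Of the 88 genes, 76 were well above background on all 38 arrays. Cox7b2 and Cox4i2 were so on 11 and 10 arrays. The arrays differed in brightness: the 75th percentile was 25.8 on HF5 W12 and 88.4 on HF75 W3, against 228.9 to 1983 on the others. The scanner's ceiling touched many members: 55 genes were saturated on no array, while Cox6a1 was saturated on 34 of 38, and 33, 23, 15 and 12 members were saturated on LFC W12, LFC W9, HFC W9 and HF75 W12. These 4 arrays also had the highest adipocyte scores (4.73 to 5.10), and 6 of the 8 adipocyte markers were themselves saturated there. The score of 10 macrophage markers ran from -0.84 to 2.79 over the arrays, with a median of 1.41. In such mixed preparations, fewer cells of a type and less RNA per cell cannot be told apart.

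No promoter was given for Sdhc, Uqcrq, Cox6a2 or Cox8c. The promoters of some other genes named below are shown to place each in the genome and to let the reader see the regulatory letters. They are the 150 bases before the RefSeq start site (GRCm38.p6), written 5′ to 3′ on the gene's strand, with matches to the NRF1 motif in capitals. NRF1 is a transcription factor known for nuclear genes of the respiratory chain. Sdha lies at chr13:74350241-74350390 (minus strand), Sdhb at chr4:140961121-140961270 (plus), Sdhd at chr9:50603850-50603999 (minus), Uqcrfs1 at chr13:30545317-30545466 (minus), Cox7b at chrX:106015550-106015699 (plus) and its testis counterpart Cox7b2 at chr5:71548206-71548355 (minus).
Sdha: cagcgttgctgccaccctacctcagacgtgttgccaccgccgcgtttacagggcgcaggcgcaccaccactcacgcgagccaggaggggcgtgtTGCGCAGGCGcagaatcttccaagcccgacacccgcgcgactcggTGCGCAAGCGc
Sdhb: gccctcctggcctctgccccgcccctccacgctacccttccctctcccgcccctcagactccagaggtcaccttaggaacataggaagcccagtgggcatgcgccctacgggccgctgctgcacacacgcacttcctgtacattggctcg
Sdhd: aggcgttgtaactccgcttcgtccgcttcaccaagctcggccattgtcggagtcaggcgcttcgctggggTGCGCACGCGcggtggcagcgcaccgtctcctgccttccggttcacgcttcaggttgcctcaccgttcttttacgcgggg
Uqcrfs1: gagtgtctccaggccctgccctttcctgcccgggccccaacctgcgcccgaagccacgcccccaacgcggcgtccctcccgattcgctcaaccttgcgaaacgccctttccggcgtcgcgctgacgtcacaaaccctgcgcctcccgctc
Cox7b: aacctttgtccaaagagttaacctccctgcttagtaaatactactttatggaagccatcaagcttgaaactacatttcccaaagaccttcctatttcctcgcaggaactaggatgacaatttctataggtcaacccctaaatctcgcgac
Cox7b2: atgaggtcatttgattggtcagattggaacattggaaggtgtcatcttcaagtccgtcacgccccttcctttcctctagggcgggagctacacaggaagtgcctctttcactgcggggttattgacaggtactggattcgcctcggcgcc
Sdha held 2 NRF1 matches in this stretch and Sdhd held 1, and none was found in the stretches of Sdhb, Uqcrfs1, Cox7b or Cox7b2. Over the full windows (250 bases before to 50 after the start, both strands), 13 of the 71 members with a promoter (18.3%) held the NRF1 motif, against 3.31% of 27025 promoters. The YY1 motif ATGGCGGC was in 7 members (9.86%, against 2.38%), the ESRRA motif CAAGGTCA in 4 (5.63%, against 1.53%) and the GABPA motif CCGGAAGT in 5 (7.04%, against 4%). The motifs were counted separately, so matches of different motifs may overlap, and a match says only that the letters are there.

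Most members moved together across the arrays. A gene's level correlated with the mean of the other members at a median r of 0.79 over 38 arrays. For 78 genes r was above 0.5. Among the 7 genes under 0.3 were Atp5sl, Cox8c, Ndufa4l2, Cox6a2, Cox7b2 and Cox6b2, several of which are known as tissue isoforms. Scores per complex (the mean of each gene's level after subtracting its own mean over the arrays) correlated at 0.93 to 0.97 among complexes I, III and V. Complexes II and IV were the least alike, with r = 0.30. These arrays share scaling and brightness, so the correlations are a description.

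The score over all members was lowest in week 6 and highest on the 2 dimmest arrays. It was -0.79 on HF20 W6, -0.64 on HF75 W6, -0.50 on HF5 W6, -0.46 on HFC W6 and close to 0 (-0.002) on LFC W6. It was 1.26 on HF75 W3, 1.24 on HF5 W12 and 0.85 on LFC W12. W15 was low on all 5 diets (-0.44 to -0.13), and W9 was above 0 on all 5 (0.12 to 0.57). By diet, the means were 0.17 ± 0.43 (SD, n = 10) for LFC, -0.15 ± 0.25 (n = 10) for HFC, 0.04 ± 0.65 (n = 6) for HF5, -0.19 ± 0.40 (n = 6) for HF20 and 0.12 ± 0.73 (n = 6) for HF75. The ranges of all 5 diets overlapped.

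The member score also went with brightness, with r = -0.63 and Spearman's rho -0.38 to log2 of the 75th percentile (38 arrays). It was -0.32 without HF5 W12 and HF75 W3, and -0.85 without the 4 adipocyte-rich arrays. The score of 85 cytosolic ribosomal protein genes, which have no part in the chain, had r = -0.82 with the same measure (Spearman's rho -0.95). The part of brightness in the levels below was not tested beyond the fits that include it.

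**Figure D1:**
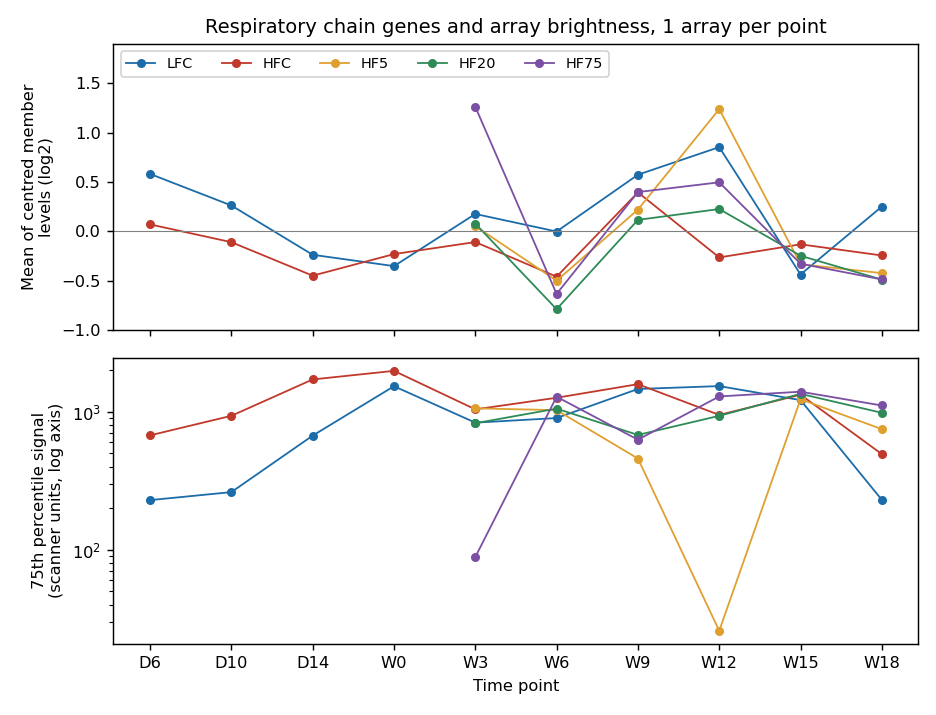
Upper panel: the mean of the centred log2 levels of the 88 genes on each array, by time point and diet; lower panel: the 75th percentile signal of the same array on a log axis. The 3 highest scores (1.26 on HF75 W3, 1.24 on HF5 W12 and 0.85 on LFC W12) include the 2 dimmest arrays, and the dose arrays of W6 are lowest.

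Respiratory chain genes stood lower on the high fat diet than on the control diet at most time points, but no gene passed the test. This comparison asked how the diet changed the cells over 10 time points. Of 86 members tested, 80 had a negative estimate of HFC minus LFC, with a median of -0.39 (log2), against 0.01 over all 31026 probes. With limma's moderated test and Benjamini-Hochberg adjustment, 0 members passed, and 0% of all probes did. The methods' t-test, written for replicates of the liver arrays at each time point, could not be run that way with 1 array per diet. Paired over the 10 time points instead, it gave 43 members at an unadjusted p below 0.05 and 0 after adjustment. At an unadjusted p below 0.05 there were 37 members, all lower on HFC, where the background was 9.09% of probes in both directions and 4.52% lower.

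The smallest p belonged to Ndufa8, an accessory subunit of complex I. Its level on LFC ranged from 2.71 to 4.85 (median 4.08, 10 arrays) and on HFC from 2.24 to 4.45 (median 3.55). HFC was lower at 9 of 10 time points, with a difference of -0.55 ± 0.15 (SE; p = 0.00298 by limma, adjusted p = 0.545), while the ranges of the 2 diets overlapped. Cox6c, a small subunit of cytochrome c oxidase, ranged from 3.72 to 6.16 on LFC and from 1.48 to 5.27 on HFC, a difference of -0.85 ± 0.25 (adjusted p = 0.545). Cox4i1, the common form of a nuclear oxidase subunit, differed by -0.44 ± 0.14 (adjusted p = 0.545). It was saturated on 11 of the 38 arrays, so part of its level is only a lower bound.

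Every complex had a negative median: -0.40 for complex I, -0.33 for its assembly factors, -0.32 for complex II, -0.46 for complex III, -0.42 for complex IV and -0.28 for complex V. The 6 genes with positive estimates were Cox8c, Cox6b2, Cox7a2l, Ndufa11, Ndufaf3 and Atp5sl, of which Cox8c, a testis subunit, was at 2.31 ± 1.28. Cox8c was well above background on 5 of 10 LFC and 8 of 10 HFC arrays. Its estimate thus rests partly on background values and is no measure of size. Other mitochondrial lists fixed for this report ran the same way without a call. The median was -0.37 for 16 citrate cycle genes, -0.47 for 11 fatty acid oxidation genes and -0.36 for 10 regulators of mitochondrial genes. For 12 genes of cytochrome c and assembly it was -0.29. The citrate cycle list also holds the pyruvate dehydrogenase genes Pdha1, Pdhb and Dlat. The 85 cytosolic ribosomal protein genes had a median of -0.31, and 30 of them had p below 0.05 lower on HFC. When all probes were split by mean level into 10 classes of equal size, the median difference went from 0.18 in the dimmest class to -0.23 in the brightest, where 19.8% of probes had p below 0.05 lower. That brightest class held 58 of the 86 members.

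By time point, the median member difference was below 0 at 8 of 10. It was -0.64 at D6 (82 of 88 lower), -0.58 at D10 (70 of 83), -0.33 at D14 (73 of 87), 0.10 at W0 (32 of 88), -0.34 at W3 (74 of 88), -0.35 at W6 (76 of 88), -0.21 at W9 (78 of 88), -1.32 at W12 (74 of 87), 0.34 at W15 (13 of 88) and -0.50 at W18 (77 of 87). At W12, LFC was adipocyte-rich and HFC was not, with an adipocyte score 3.42 lower on HFC. At D6 and D10 the brown fat score was 3.44 and 5.60 lower on HFC, and at D6 the skeletal muscle score was 4.69 lower. The macrophage score was higher on HFC at 8 of 10 time points, by 1.75 at W12 and 2.36 at W18. It was lower at W0 (-0.35) and W15 (-0.90), the time points at which the median member was higher on HFC. The part of macrophage content in the members' differences was not tested. HFC arrays were brighter than LFC at 9 of 10 time points, by 0.66 on average (log2).

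With the adipocyte and brown fat scores in the fit, the median over the 86 members was -0.19 and 0 had an unadjusted p below 0.05. Complex II went from -0.32 to 0.04, while complex I was at -0.24 and complex IV at -0.34. With array brightness in the fit, chosen after seeing the data, the median was -0.43 and 8 members had p below 0.05. With quantile normalization it was -0.26 and 3. No share over all probes is given for these fits.

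**Figure D2:**
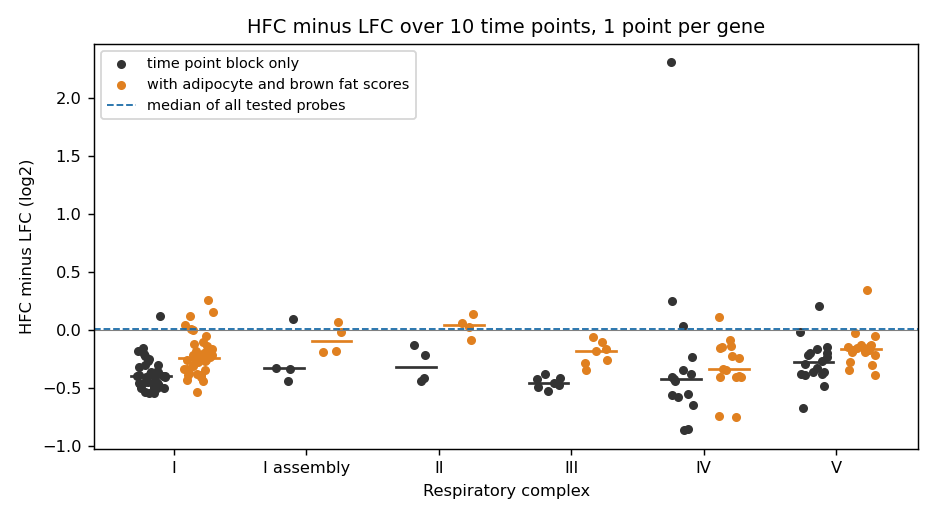
Each point is the estimate of HFC minus LFC (log2) for 1 of 86 genes by complex, from the fit with time points as a block (black) and with the adipocyte and brown fat scores added (orange); short bars are medians and the dashed line is the median of all probes. The black medians lie between -0.46 and -0.28, and the orange median of complex II lies at 0.04.

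Over weeks 3 to 18, 86 of 88 members had a negative HFC minus LFC estimate, with a median of -0.36. No member passed after adjustment, and 8 had p below 0.05 (background 3.22%), Ndufa8 again first at -0.58 ± 0.24 (limma, adjusted p = 0.9996), with Cox7b at -0.72 ± 0.31 and Cox6c at -0.82 ± 0.36.

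At the 3 doses of KAL-1, differences from HFC were small against their spread, and 0 members and 0% of probes passed at each dose and for their mean. The median over 88 members was 0.06 for HF5, -0.10 for HF20, 0.28 for HF75 and 0.07 for the mean of the doses. At an unadjusted p below 0.05, each of these had 1 member, against 4.73%, 1.53%, 1.95% and 1.74% of all probes. For HF75 it was Cox6c (0.79 ± 0.36, adjusted p = 0.9999 by limma). For HF5, HF20 and the mean it was Cox7b2, the testis form of an oxidase subunit, which was well above background on 3 of 6 HF5, 3 of 6 HF20 and 1 of 6 HF75 arrays and on 0 of the 6 HFC arrays of these weeks. Its differences therefore rest on background values and are not given a size: the HF5 estimate ranged from 0.38 to 3.25 over the alternatives, and its adjusted p was 0.776. The HF5 median was -0.17 without W12. By time point it was below 0 at 4 of 6, and it was 1.42 at W12, where HF5 was the dimmest array. The estimate for HF75 was positive for 83 of 88 members but the median difference by time point was above 0 only at W3 (1.56, on the dim HF75 array) and W12 (0.84, on the adipocyte-rich one), and -0.27 to -0.07 at the other 4. Without HF5 W12 and HF75 W3 the HF75 median was 0.03. Scan day differed between HFC and part of the doses: all 3 at W9, HF75 alone at W6, and both HF20 and HF75 at W3 and at W18. Scan day and dose cannot be told apart at those time points.

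Over the course of the study, the levels had no steady drift that passed the test. Against elapsed time (weeks counted from day 14, as the methods written for the liver arrays of this feeding experiment do), 0 of 86 members had p below 0.05 on LFC (background 3.89%) and 1 on HFC (background 7.87%). That one was Atp5k, a small ATP synthase subunit, which gained 0.12 ± 0.04 log2 per 7 days (limma, adjusted p = 0.509). For the change of HFC minus LFC with time it was 0 members (background 4.37%), and no probe passed after adjustment in any of the 3 fits.

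Genes of complex II were highest on arrays rich in adipocyte transcripts. The adipocyte score is the mean level of Adipoq, Cfd, Cidec, Plin1, Retn, Lipe, Pck1 and Lep, and the brown fat score that of Ucp1, Cidea, Elovl3, Dio2, Zic1, Lhx8 and Kng2. Elovl3, Zic1 and Lhx8 were well above background on only 8, 5 and 6 of the 38 arrays. The brown fat score thus rests partly on background values, which vary with array brightness. The part of these values in its slopes was not tested beyond the fits that include brightness. Both were fitted together over all 38 arrays with time points as a block. For the adipocyte score, 15 of 88 members passed the adjusted threshold, all higher with it, where 6.34% of all probes did so. By complex these were 4 of 4 in complex II, 6 of 38 in complex I, 2 of 4 of its assembly factors, 2 of 7 in complex III, 0 of 17 in complex IV and 1 of 18 in complex V.

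Complex II is made of the flavoprotein Sdha, the iron-sulfur protein Sdhb and the membrane anchors Sdhc and Sdhd. Sdhb stood at 3.71 on LFC W9, 3.88 on HFC W9, 4.26 on LFC W12 and 3.67 on HF75 W12, the 4 adipocyte-rich arrays. It stood at 3.81 on HF5 W12 and 3.73 on LFC D10, the arrays with the most Ucp1. On the other 32 arrays it did not exceed 2.95. Its medians by diet were 2.16 on LFC, 2.05 on HFC, 1.88 on HF5, 1.69 on HF20 and 2.04 on HF75, with overlapping ranges. The slope of Sdhb on the adipocyte score was 0.39 ± 0.06 log2 per unit of score (SE, limma, adjusted p = 6.22e-05). Sdha rose by 0.29 ± 0.06 (adjusted p = 0.001995), Sdhc by 0.29 ± 0.07 (0.00443) and Sdhd by 0.20 ± 0.05 (0.0072). Sdha was at 2.04 to 2.96 on the 4 adipocyte-rich arrays, 2.43 on HF5 W12, 1.92 on LFC D10 and at most 1.38 elsewhere. None of the 4 genes was saturated on any of the adipocyte-rich arrays.

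In complex I, Ndufs1, the iron-sulfur subunit of the NADH-oxidising arm, rose by 0.27 ± 0.06 per unit (adjusted p = 0.00405 by limma), and Ndufab1, Ndufb3, Ndufb5, Ndufa10 and Ndufa9 also passed. The assembly factors Ndufaf1 (0.27 ± 0.06) and Ndufaf2 (0.18 ± 0.06) passed as well. In complex III, the Rieske protein Uqcrfs1 (0.18 ± 0.05) and the core protein Uqcrc1 (0.16 ± 0.05) passed, and in complex V the stalk subunit Atp5f1 (0.15 ± 0.05). Atp5b, the catalytic beta subunit of ATP synthase, had a slope of -0.13 ± 0.05 that did not pass (adjusted p = 0.103). It was saturated on 14 arrays, its slope was -0.01 ± 0.12 with saturated values left out, and the other 2 probes of Atp5b did not follow it (r = -0.18 and -0.09).

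**Figure D3:**
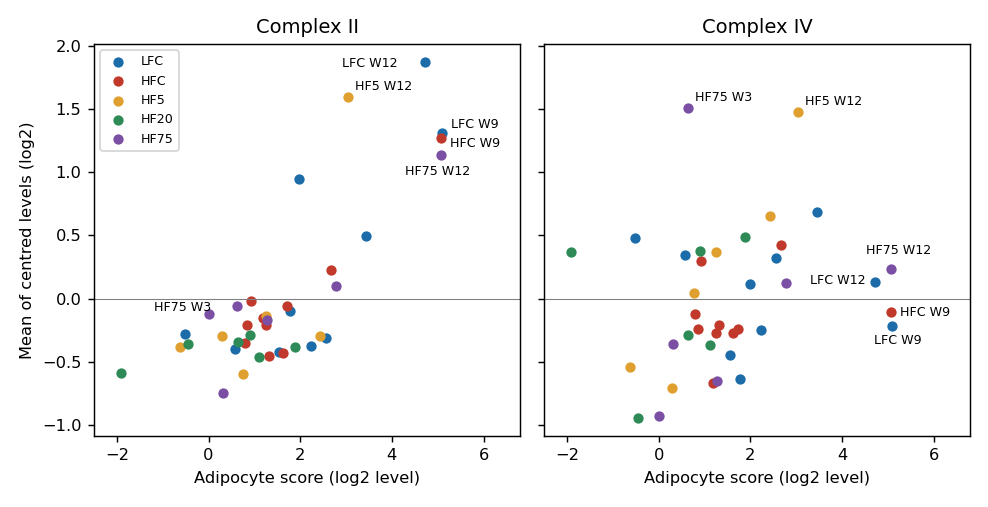
Mean of the centred log2 levels of complex II (4 genes, left) and complex IV (17 genes, right) on each of 38 arrays against the adipocyte score, coloured by diet. On the 4 adipocyte-rich arrays (W9 of LFC and HFC, W12 of LFC and HF75) complex II lies between 1.14 and 1.87 and complex IV between -0.21 and 0.24. On these arrays 3 to 6 members of complex IV and 0 of complex II were saturated.

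The adipocyte calls changed with a few arrays. Without the W9 arrays of LFC and HFC and the W12 arrays of LFC and HF75, 0 members passed, and 36 probes of the whole array did. The slope of Sdhb was then 0.23 ± 0.09 (adjusted p = 0.521 by limma) and that of Sdha 0.06 ± 0.08. Without W12 no member passed, and without W9 4 did. With array brightness in the fit 12 members passed, complex II with 4 of 4, and Sdhb had 0.34 ± 0.06 (adjusted p = 0.000563). With a second adipocyte list (Acsl1, Dgat2, Agpat2, Slc2a4, Aoc3, Gpd1, Plin4 and Thrsp) 45 members passed, 44 of them higher. The share of all probes that passed with this list is not given here, so the 45 have no background beside them.

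Among the other mitochondrial lists in the same fit, 9 of 16 genes of the citrate cycle list and 7 of 11 fatty acid oxidation genes rose with the adipocyte score. The pyruvate dehydrogenase genes Pdha1, Pdhb and Dlat were among those 9. In the list of cytochrome c and assembly genes (12 genes), Cyc1, Cox19 and Bcs1l rose and the others did not pass. Idh3a of the citrate cycle rose by 0.47 ± 0.08 (adjusted p = 0.000444 by limma) and Acadm, the medium-chain acyl-CoA dehydrogenase, by 0.36 ± 0.06 (0.000125). Of 10 regulators 1 rose, Tfb2m, a mitochondrial transcription factor (0.19 ± 0.06, 0.0428), and the coactivator Ppargc1a was at 0.16 ± 0.13. Of 85 ribosomal protein genes 1 rose and 2 fell.

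All 7 genes named Uqcr, the members of complex III, rose with the brown fat score. Part of that score's markers were not well above background on most arrays. Cyc1, a complex III gene that the name rule does not take, had a slope of 0.16 ± 0.07 that did not pass (adjusted p = 0.132 by limma). Of 88 members 27 rose with the brown fat score, all higher, where 11.1% of probes did so. They were 7 of 7 in complex III, 7 of 38 in complex I, 6 of 17 in complex IV, 6 of 18 in complex V, 1 of 4 in complex II and 0 of 4 assembly factors. The count of complex IV includes Cox6a1, which was saturated on 34 of 38 arrays and whose slope was 0.42, and -0.15 with array brightness in the fit. In the same fit 11 of 11 fatty acid oxidation genes, 9 of 16 citrate cycle genes and 26 of 85 ribosomal protein genes rose. In the list of cytochrome c and assembly genes (12 genes), only Cycs rose (0.25 ± 0.07, adjusted p = 0.022 by limma). Of the regulators 1 of 10 rose, the nuclear receptor Esrra (0.20 ± 0.05, adjusted p = 0.00451 by limma).

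Uqcrq, a small subunit of complex III, had the smallest p. It was saturated on 5 arrays. It stood at 8.23 on HF5 W12, 7.35 on HF75 W3, 6.84 on LFC D6 and 6.76 on LFC D10, and between 4.40 and 6.50 on the other arrays. In that order, the brown fat scores of the 4 named arrays were 1.19, -4.27, -1.43 and -0.01. Their 75th percentiles were 25.8, 88.4, 228.9 and 261.6, so the level of Uqcrq fell among them as brightness rose. The slope of Uqcrq was 0.41 ± 0.06 log2 per unit of score (adjusted p = 0.000106 by limma). Ndufv1, the flavin-binding subunit of complex I, stood at 6.35 on HF5 W12 and had a slope of 0.27 ± 0.05 (0.000289), and Atp5b stood at 7.83 there and had 0.30 ± 0.05 (0.000377). The saturation of Atp5b given above applies here too, and its other probes did not follow the brightest probe (r = -0.09 and -0.18). HF5 W12 carried Ucp1 at 6.93 and LFC D10 at 5.11, against a median of -4.62 over all arrays. HF5 W12 was also the dimmest array.

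The brown fat calls changed with 1 array, HF5 W12. Without it, 2 members passed, Uqcrq at 0.34 ± 0.09 (adjusted p = 0.0324 by limma) and Ndufv1 at 0.25 ± 0.06 (0.0316). With array brightness in the fit 1 member passed and it was lower. The slope of Uqcrq was then 0.12 ± 0.06 and that of Ndufv1 0.21 ± 0.07 (adjusted p = 0.262 and 0.0879). The slope of Atp5b was 0.05 ± 0.05 with brightness and 0.19 ± 0.07 without HF5 W12 (adjusted p = 0.56 and 0.109 by limma). With the skeletal muscle score added, 8 members passed. No share over all probes is given for these settings.

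**Figure D4:**
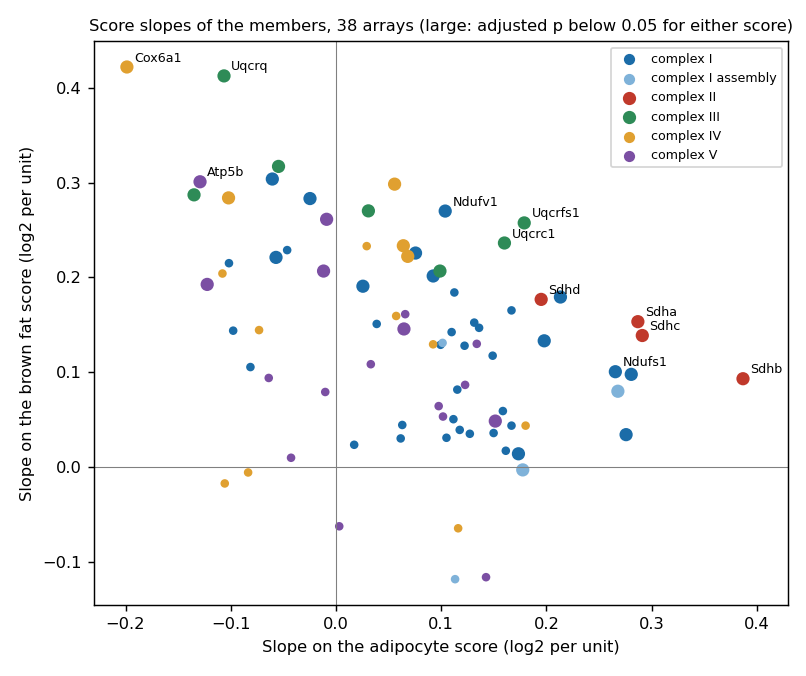
Slope of each gene on the brown fat score against its slope on the adipocyte score (log2 per unit of score, both in 1 fit over 38 arrays), coloured by complex, with large points for an adjusted p below 0.05 for either score; Cox8c, Cox7b2, Cox6a2 and Atp5k lie outside the axes and are not drawn. The genes of complex II lie to the right (0.20 to 0.39 on the adipocyte score) and those of complex III lie high (0.21 to 0.41 on the brown fat score).

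How much of the levels followed the 2 scores was also read as a share. Within time points, both scores together took a median of 30.3% of a member's variance, against 17.2% over all probes. The share was 68.9% for complex II, 61.7% for complex III, 32.5% for complex V, 27.3% for complex I and 23.1% for complex IV. Taken alone, the adipocyte score had a median share of 54.7% for complex II and the brown fat score 28%. For complex III these were 6.67% and 53.3%. The shares of a score alone are not parts that add up to the share of both. These shares are a description of the same 38 arrays as the slopes. Those arrays include HF5 W12 and the adipocyte-rich ones, without which the calls changed. What part of the shares rests on these arrays or on array brightness was not tested.

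Tissue isoforms of complex IV rose with markers of muscle and sperm. Cox6a2 is the muscle form of the subunit whose common form is Cox6a1, and Cox8c and Cox7b2 are testis forms. Cox6a2 stood at 4.43 on HF5 W12 and 3.75 on LFC W6, between 0.10 and 0.57 on the other 4 arrays of W6, and at -5.65 on HF75 W3. With the skeletal muscle score (Ckm, Acta1, Myl1 and 7 others) and the sperm score (Prm1, Prm2, Tnp1 and 5 others) fitted together, 3 members rose with muscle (0.911% of probes did). Cox6a2 rose by 0.90 ± 0.10 (adjusted p = 1.03e-06 by limma), Uqcrfs1 by 0.23 ± 0.05 (0.0172) and Uqcrc2 by 0.17 ± 0.04 (0.0495). Uqcrfs1 and Uqcrc2 also rose with the brown fat score, and without W12 their muscle slopes were 0.14 and 0.10 (adjusted p = 0.332 and 0.488). With the adipocyte and brown fat scores added, they were 0.08 and 0.06 and did not pass. Cox6a2 also rose with the brown fat score, by 0.83 ± 0.17 (adjusted p = 0.00188), the steepest slope of any member on it. That slope was 0.38 (adjusted p = 0.335) without HF5 W12, the array with the most Ucp1, and 0.27 (0.317) with the muscle score added. With the adipocyte and brown fat scores added, the muscle slope of Cox6a2 was 0.75 (0.00823). Cox6a1 was saturated on 34 arrays and gives no measure of the common form.

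With the sperm score 2 members rose (6.8% of probes did). Cox8c rose by 1.05 ± 0.10 (adjusted p = 1.23e-09 by limma). Cox7b2 passed as well (4.12e-07), but it was well above background on 11 of 38 arrays, so its slope is no measure of size: it was 0.60 here and 0.17 after normexp and quantile normalization. Cox8c was highest on HFC D10 (1.76), HF5 W9 (1.44), HF5 W18 (1.25), HF20 W9 (0.89) and HF5 W3 (0.83), and it was well above background on 5 of 10 LFC, 8 of 10 HFC, 4 of 6 HF5, 4 of 6 HF20 and 5 of 6 HF75 arrays. The slope of Cox8c thus rests partly on background values and is no measure of size. So does the sperm score rest partly on them, as its markers Odf1 and Akap4 were well above background on only 12 and 18 arrays. Cox8c also correlated with 8 epididymis markers (r = 0.67, against 0.88 with the sperm score, 38 arrays). Sdha was the 1 member that fell with the sperm score, by 0.11 ± 0.04 log2 per unit (adjusted p = 0.0428, where 2.27% of probes fell). This call was lost in 10 of 17 alternatives, and the slope was -0.06 (adjusted p = 0.441) with the adipocyte and brown fat scores added. Cox6b2, another testis form, was measured on all arrays and had a slope of 0.08 that did not pass (0.0957).

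**Figure D5:**
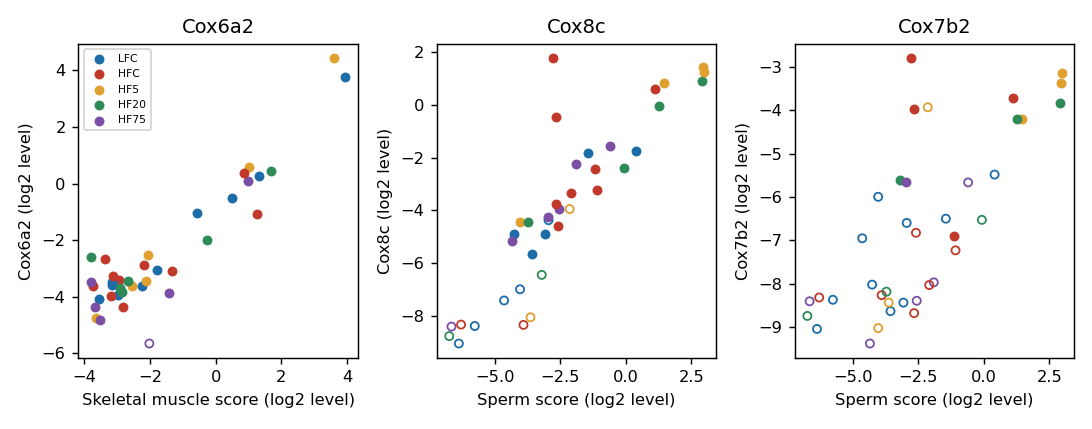
Log2 level of Cox6a2 against the skeletal muscle score, and of Cox8c and Cox7b2 against the sperm score, on 38 arrays coloured by diet; open circles are arrays where the probe was not well above background. The 2 highest points of Cox6a2 are HF5 W12 (4.43) and LFC W6 (3.75), and Cox7b2 is open on all LFC arrays.

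Ndufa4l2, known as a hypoxia-induced paralog of Ndufa4, ranged from -0.34 on HF20 W12 to 2.87 on LFC W15 and correlated with the member score at r = 0.02. Cox4i2, the lung form of Cox4i1, was well above background on 2 of 10 LFC, 3 of 10 HFC, 1 of 6 HF5, 3 of 6 HF20 and 1 of 6 HF75 arrays, too few for a comparison of levels. Of 25 genes with more than 1 probe, 14 of the 29 other probes well above background on at least 19 arrays followed the brightest probe at r above 0.8, and 5 were under 0.5.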

How the data were processed

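Epididymal stromal vascular RNA of 38 samples was hybridised to one-colour (Cy3) Agilent arrays. The intensity values are those deposited by the authors from Agilent Feature Extraction, whose version is 9.1 per the submitters' processing notes and 10.5.1.1 per the file headers. The processed signal is already background-corrected. The deposited series table holds log2 ratios made by the authors against LFC at each time and served as an alternative.

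Spots of a probe were averaged, and log2 of the processed signal minus log2 of the array's 75th percentile was taken. Probes well above background on at least 0.5 of the arrays of a diet in the comparison were tested with limma 3.58.1 (R 4.3.3; lmFit and eBayes, two-sided) over all probes, with Benjamini-Hochberg adjustment at 0.05. HFC and LFC, and the doses, were compared with time points as a block, which pairs arrays of the same time; at each time LFC and HFC were scanned on 1 day. Weeks were converted to days as 14 plus 7 times the week, after methods written for another tissue of the same feeding experiment. Score slopes were fitted over 38 arrays, and time slopes are per 7 days. Fits were tested on simulated data.

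Named genes were a fixed set of subunits, in each comparison the 3 members of smallest p in each direction among those called (or the 3 of smallest p where none was) and up to 5 called against the majority. Other genes named were chosen after their values were seen. The members and lists were chosen with earlier results of these data known. Alternatives were other normalizations, filters, covariates, lists and left-out arrays (93 planned, 25 chosen after seeing the data). Gene positions and promoters came from RefSeq (GRCm38.p6), where 87 of the 88 names matched and 71 had a promoter. The number of arrays limits the precision. Python 3.11.15 with pandas 2.3.3 was used for the tables.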

Additional observations from a re-analysis of the deposited data

Results flagged for a closer look

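In 65 groups of 4 to 10 arrays, 7 held an array far from the others. A rate of 1 in 20 would give 3.25 groups. The groups share arrays and genes, so the 2 counts cannot be compared as if the groups were independent. On HFC W9, an adipocyte-rich array, the scores of complex I (0.583), the complex I assembly factors (0.68) and complex II (1.274) stood above the other 9 HFC arrays. On HF5 W12, the dimmest array and the one with the most Ucp1, the scores of complex II (1.591) and complex III (2.108) and the levels of Sdhb (3.814) and Uqcrq (8.233) stood above the other HF5 arrays. The part of brightness and of other cell types in these values was not tested.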

How the results depend on the processing

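In the diet, dose and time comparisons the count of members passing the adjusted test was 0 under every alternative run. For the adipocyte score (15 members) the count was 31 after normexp and quantile normalization, 34 with the time point block left out, 0 without the 4 adipocyte-rich arrays (W9 of LFC and HFC, W12 of LFC and HF75), 45 with the second adipocyte list and 5 with diet added, and 0 (without W12) to 18 when 1 time point at a time was left out. For the brown fat score (27) it was 10 after quantile normalization, 16 after normexp, 17 without the 4 adipocyte-rich arrays, 8 with the skeletal muscle score added, 13 with diet added, 1 with array brightness, 3 without HF5 W12 and HF75 W3 and 2 without HF5 W12, and 2 (without W12) to 28 over left-out time points. For the skeletal muscle score (3) it was 9 after quantile normalization, 13 after normexp, 1 without HF5 W12 and HF75 W3, 1 with the adipocyte and brown fat scores added, and 1 to 6 over left-out time points. For the sperm score (3) it was 0 among probes well above background on every array, where Cox8c and Cox7b2 were not tested and Sdha had an adjusted p of 0.0683, and 1 to 4 over left-out time points. The slope of Cox5b on the brown fat score turned to -0.06165 with array brightness, and that of Cox6a1 to -0.15. The counts under these alternatives have no share over all probes beside them. Beyond the construction of each setting, the cause was not tested. Of single genes, 579 values kept their direction and side of the threshold and 130 kept the direction only. The scanner's ceiling limits the brightest members, and dim arrays limit the isoforms.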
